A study of Saccharomyces cerevisiae with 5 samples.

Results

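The genes of lower glycolysis, which carry glyceraldehyde 3-phosphate to pyruvate, were followed through 5 arrays of RNA co-purified with the yeast mRNA export adaptor Yra1. The set held 9 genes, chosen by their symbols in the annotation of the arrays: TDH1, TDH2 and TDH3, PGK1, GPM1, ENO1 and ENO2, CDC19 and PYK2. All 9 were present, out of 5583 named genes. They had 10 spots among 7680 on the design used for arrays 1 to 3, and 18 spots among 12800 on the design used for arrays 4 and 5, where each gene was spotted in adjacent duplicates.

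On each array, cDNA from an immunoprecipitate of zzYra1 was hybridised against cDNA from an immunoprecipitate of the zz tag alone. The zz tag is a pair of IgG-binding domains, so the second immunoprecipitate is the background of the tag and the matrix. By the labels, the zzYra1 sample was channel 2 for arrays 1, 2 and 5, and channel 1 for arrays 3 and 4. The sources used here do not give the strain background, the growth medium, how zzYra1 was expressed or whether arrays share a culture, so the spread between arrays may be technical. The titles of arrays 4 and 5 name 1 day. The labels do not state the numerator of the deposited ratios. The arrays do not settle it either: across genes, which are not independent replicates, Pearson's r lay between -0.0816 and 0.0468 for the 10 array pairs, whichever the orientation. Values below are log2 ratios set against the median gene of their own array, so 0 marks that gene, 1 is a 2-fold difference from it, and a sign says nothing about which immunoprecipitate held more of an mRNA.

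Glyceraldehyde-3-phosphate dehydrogenase, encoded by the TDH genes, starts the energy-yielding stretch of glycolysis, and pyruvate kinase ends it. In yeast growing on glucose these mRNAs are among the most abundant in the cell, and several enzymes have a major and a minor gene copy: TDH3 and CDC19 are the major copies of their enzymes, TDH1 and PYK2 minor ones. Yra1 binds RNA and the export receptor Mex67, and so couples nascent mRNAs to their passage through the nuclear pore.

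A first question was whether a ratio existed for these mRNAs at all, because most genes had none on several arrays. On array 5, 8 of the 9 genes had a value (88.9%), while 19.8% of all genes did. On array 4, 7 of 9 had one (77.8%), against 23.9% of all genes, and on array 2 it was 7 of 9, against 51.1%. The gap was smaller on array 1, with 5 of 9 genes (55.6%) against 44.3%, and on array 3 all 9 genes and 97.6% of all genes had a value. The genes were therefore measured more often than the background share on arrays 2, 4 and 5, by the widest margin on arrays 4 and 5. On arrays 1 and 3 their count was near that share. Counted over arrays, 8 of the 9 had a value on at least 4 of 5, against 13% of all genes, and TDH1 and CDC19 had one on every array.

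**Figure D1:**
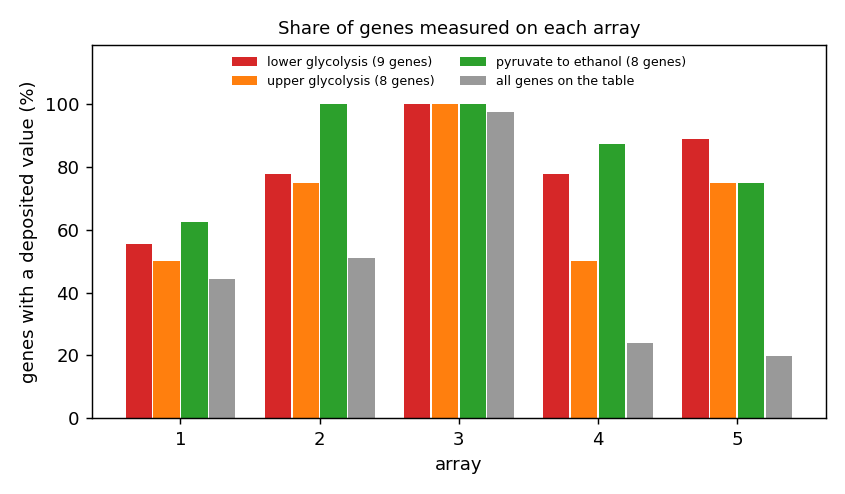
Share of genes with a deposited value, in percent, by array, for the 9 lower glycolysis genes, 8 upper glycolysis genes, 8 genes from pyruvate to ethanol, and all genes on the table of that array. On array 5 the shares are 88.9% for lower glycolysis and 19.8% for all genes, and on array 3 nearly every gene has a value.

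On arrays 4 and 5, 23.9% and 19.8% of all genes had a value. The upper steps and those from pyruvate to ethanol exceeded these shares, so frequent measurement was not shown to be particular to the lower steps. The glycerol branch and the gluconeogenic and anaplerotic genes lay near or below them. The upper steps, from the hexokinases to TPI1, were measured for 4 of 8 genes on array 4 and 6 of 8 on array 5. Of the genes from pyruvate to ethanol, the PDC and ADH families, 7 and 6 of 8 had a value on these arrays. Regulators of glycolytic transcription (GCR1, GCR2, RAP1 and TYE7) had one for 2 of 4 genes on each, and the glycerol branch (GPD1, GPD2, GPP1 and GPP2) for 0 and 1 of 4. Of the gluconeogenic and anaplerotic genes, PCK1, FBP1, PYC1, PYC2 and MDH2, 1 of 5 had a value on array 4 and 0 on array 5.

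Among the 9 genes, the gaps fell on different members. The minor pyruvate kinase gene PYK2 had no value on arrays 2, 4 and 5, whereas the major gene CDC19 had one on all 5. On array 1 the pattern differed: TDH3, PGK1, GPM1 and ENO1 lacked a value there, while PYK2 had one. TDH2 was missing on array 2 and ENO2 on array 4. Where a gene was measured on array 4 or 5, both of its duplicate spots had a value, which gave 14 and 16 of the 18 spots. Among all measured genes, 909 of 1326 on array 4 and 732 of 1099 on array 5 had a value on every spot. The part of spot brightness in these gaps was not tested, as intensities were not used here.

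Homologues of these genes that are not counted among the main glycolytic enzymes were measured about as often as genes at large, with 3 of 5 having 2 or fewer values, against 58.9% of all genes. GPM2 and GPM3, which resemble the mutase gene GPM1, had values on 1 and 3 arrays. Of the enolase-like genes, ERR1 had values on 3 arrays and ERR2 and ERR3 on 2 each. ERR1 lay at 0.35, 0.25 and 0.32 on arrays 3, 4 and 5. These genes were too rarely measured for a test over arrays.

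The 3 TDH genes encode isozymes of glyceraldehyde-3-phosphate dehydrogenase. TDH1 lay at 0.98, -1.41, -0.06, 2.03 and 0.22 on arrays 1 to 5. TDH3 had no value on array 1 and lay at -1.47, -0.11, 0.95 and 0.18 on arrays 2 to 5. TDH1 and TDH3 thus took the same side of the median gene on arrays 2, 3, 4 and 5, low on array 2 and high on array 4. They differed by 0.06, 0.05, 1.08 and 0.04 log2 units on these arrays. The median difference over all pairs of genes was 0.77, 0.85, 2.40 and 1.06. No spot sequences were used, so whether the spots tell such paralogs apart was not tested, here or for the enolase and pyruvate kinase copies below.

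TDH2 departed from its paralogs on the older design. It lay at 5.28 on array 1, 1.58 on array 3, 1.28 on array 4 and 0.10 on array 5. On array 1 it was 4.30 log2 units above TDH1, further apart than 96.8% of gene pairs on that array, and on array 3 it was 1.64 above TDH1 and 1.69 above TDH3. On arrays 4 and 5 the 3 genes lay within 1.08 and 0.13 log2 units of each other. The high value on array 1 came from a single spot. The 2 measured spots of other genes whose numbers lay within 10 of it had a median of 5.50 on that array, so spots numbered nearby were about as high as TDH2, and their part in its value was not tested.

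**Figure D2:**
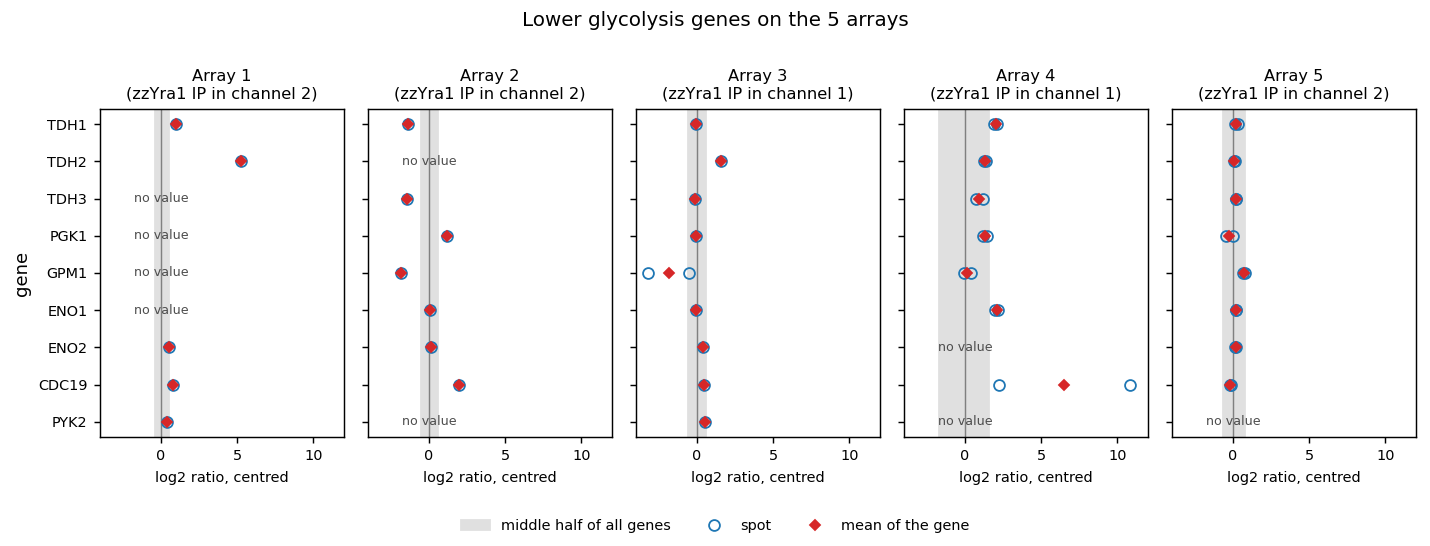
Log2 ratio of each lower glycolysis gene on each of the 5 arrays, relative to the median gene of that array at 0. Open circles are single spots, diamonds the mean of a gene's spots, and the grey band the interquartile range of all genes; the far values are TDH2 on array 1 (5.28) and the second CDC19 spot on array 4 (10.84).

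PGK1 encodes phosphoglycerate kinase, the first ATP-forming step of the pathway. It had no value on array 1 and lay at 1.20, -0.06, 1.30 and -0.25 on arrays 2 to 5. It was on the high side on arrays 2 and 4 and close to the median gene on arrays 3 and 5. On array 2 it was higher than 90.3% of genes, while TDH1 and TDH3 on the same array were higher than only 2.24% and 1.86%. Successive enzymes of the pathway therefore lay near opposite ends of array 2.

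GPM1 encodes phosphoglycerate mutase and was the lowest of the measured genes on arrays 2, 3 and 4. It lay at -1.85, -1.86, 0.16 and 0.71 on arrays 2 to 5 and had no value on array 1. On the design of arrays 1 to 3 it had a pair of separate spots, and these disagreed on array 3, at -0.54 and -3.19. That gap of 2.64 log2 units was wider than in 92.5% of the genes with 2 measured spots there, whose median gap was 1.03. The lower of these spots was also the one measured on array 2. On array 3, spots of other genes numbered within 10 had a median of 0.11 around the higher GPM1 spot and -1.02 around the lower one. On array 2 the median around the lower spot was 0.99. The part of position in these values was not tested. On the other design the GPM1 duplicates lay at -0.09 and 0.41 on array 4 and at 0.63 and 0.80 on array 5.

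ENO1 and ENO2 encode the enolases, which make phosphoenolpyruvate. ENO1 lay at 0.08, -0.03, 2.08 and 0.22 on arrays 2 to 5. ENO2 lay at 0.50, 0.14, 0.38 and 0.18 on arrays 1, 2, 3 and 5. On the 3 arrays that measured both, arrays 2, 3 and 5, they differed by 0.06, 0.41 and 0.03 log2 units, less than the median pair of genes. ENO2 was the steadiest of the genes measured on 4 or more arrays, all of its values lying between 0.14 and 0.50, but it had no value on array 4, where ENO1 was at its highest.

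CDC19 and PYK2 encode pyruvate kinase. CDC19 lay at 0.78, 1.97, 0.47, 6.53 and -0.17 on arrays 1 to 5, above the median gene on 4 of 5 arrays. Spots of other genes numbered within 10 of its spot had medians of 0.60, 0.97 and -0.33 on arrays 1 to 3, and their part was not tested. On array 2 it was the highest of the 7 measured genes, and on array 4 it was higher than 99.8% of genes. PYK2 lay at 0.40 on array 1 and 0.51 on array 3. The copies were 0.38 apart on array 1 and 0.04 apart on array 3.

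The CDC19 value of array 4 rested on 1 of its 2 spots. The adjacent duplicates lay at 2.22 and 10.84, a gap of 8.62 log2 units, wider than in 99.7% of 914 duplicate pairs on that array, whose median gap was 0.45. In deposited units the second spot stood at 3.72 log10, the highest of 2535 measured spots, with the next highest spot at 2.50. On array 5 the same spots lay at -0.13 and -0.22. The lower spot alone would place CDC19 on array 4 close to ENO1 and TDH1.

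The duplicates of the other genes were close. On array 4 the 6 other measured genes had gaps of 0.13 (TDH2) to 0.50 (GPM1), and on array 5 all 8 measured genes had gaps of 0.02 (TDH3) to 0.47 (PGK1), where the median over 737 duplicate pairs was 0.28. For each of the 6 genes other than CDC19 that were measured on both arrays, the duplicates of either array lay closer together than the gene's values on arrays 4 and 5. ENO1, for instance, differed by 0.21 between its duplicates on array 4 and lay 1.87 log2 units higher there than on array 5. GPM1 was a narrow case: its gap on array 4 was 0.50, and its value on array 4 minus that on array 5 was -0.55. The share of all genes with duplicates closer than their values on arrays 4 and 5 was not computed. It is therefore not read as a trait of these genes.

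**Figure D3:**
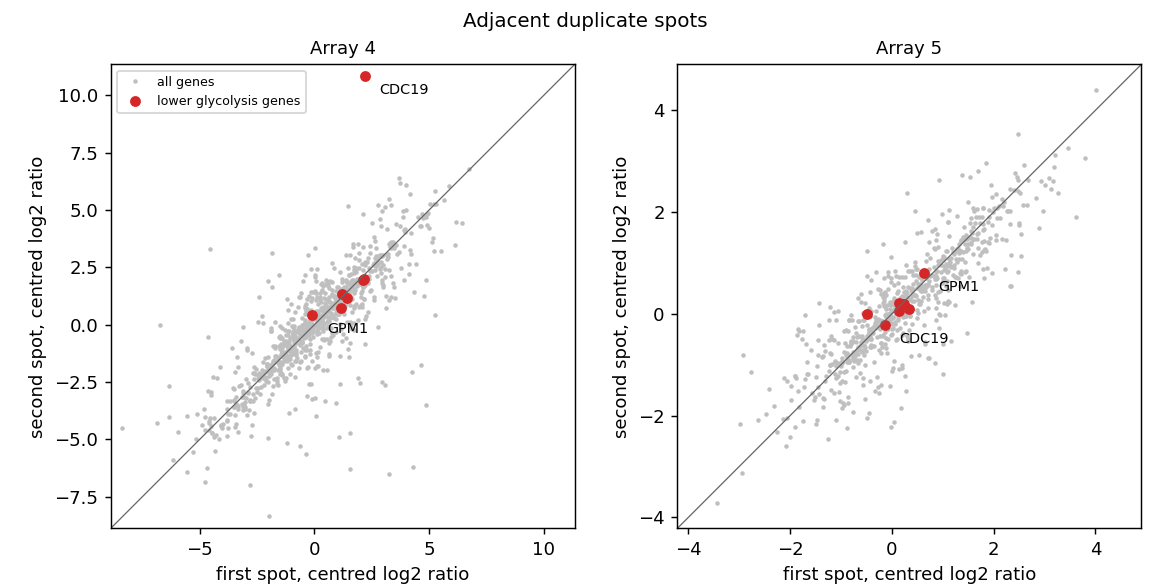
Second against first of 2 adjacent spots of the same gene on arrays 4 and 5, as log2 ratios relative to the median gene, with all genes in grey and lower glycolysis genes in red. The line marks equal values; CDC19 on array 4, at 2.22 and 10.84, lies far off it, and the remaining red points lie near it.

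Array by array, the 9 genes shared a side of the median gene on 2 arrays. All 7 measured genes were above the median gene on array 4, with a median of 1.30, a low of 0.16 and a high of 6.53, and all 5 were above it on array 1, with a median of 0.78 and a range of 0.40 to 5.28. By construction 50% of all genes lie above it. On array 5, 6 of 8 genes were above, with a median of 0.18, and on array 3, 4 of 9 were above, with a median of -0.03. On array 2, 4 of 7 were above, with a median of 0.08, and the genes ran from -1.85 to 1.97. With each spot set against spots numbered nearby, the medians were 0.27 on array 1 (4 genes), -0.53 on array 2 (6 genes) and 0.02 on array 3 (9 genes). On arrays 4 and 5 they were 0.96 and -0.77, from only 2 and 3 genes.

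How closely the genes held together also varied by array. On array 5 their standard deviation was 0.29, against 1.14 over all genes, and 7 of 8 lay within 0.5 log2 units of the median gene, against 35.3% of all genes. On array 3, 6 of 9 lay within that distance, against 42.7%, with a standard deviation of 0.90 against 0.91. On array 2 the genes were more dispersed than genes at large, with a standard deviation of 1.45 against 0.91, and 2 of 7 lay within that distance, against 47.7%. On array 4, with a standard deviation of 2.08 against 2.51, 1 of 7 did, against 16.5%, and on array 1, with 2.08 against 1.09, 2 of 5 did, against 52.1%. A single gene carried each of these last spreads: the standard deviation was 0.26 on array 1 without TDH2 and 0.74 on array 4 with CDC19 taken from its lower spot.

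Arrays 4 and 5 used the same design, share a day by their titles and had opposite orientation, so they offer the closest comparison between orientations. Of the 7 genes measured on both, 6 lay higher on array 4, by between 0.77 (TDH3) and 6.71 (CDC19) log2 units. GPM1 was the exception, at 0.16 on array 4 and 0.71 on array 5. The share of all genes measured on both arrays that lay higher on array 4 was not computed. The count of 6 therefore has no background and is not read as a trait of these genes. Array 4 was also the array with the widest spread of all genes, and with every array scaled to the same spread the median of the 7 measured genes on it was 0.56.

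The measured upper glycolysis genes, like those of the lower steps, were all above the median gene on arrays 1 and 4. On array 2 the upper glycolysis genes lay at a median of -0.44, with 1 of 6 above the median gene, and the genes from pyruvate to ethanol lay at -0.45, with 2 of 8 above. On array 4 the medians of these lists were 1.44 and 0.90, with 4 of 4 and 4 of 7 above the median gene, and on array 5 they were 0.21 and 0.14. On array 1 the 4 measured upper glycolysis genes had a median of 0.24. All 4 lay within 0.5 log2 units of the median gene, and HXK2, at 0.0029, was almost at it. On array 3 the genes from pyruvate to ethanol lay at -0.72, and those of upper glycolysis at 0.37. These are descriptions of single arrays, and no difference between the lists was tested.

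Whether any of these mRNAs differed between the immunoprecipitates over all arrays was tested in limma, with p-values adjusted by the Benjamini-Hochberg method over 725 genes with a value on at least 4 arrays and a threshold of 0.05. Because the numerator is unknown, each gene has an estimate under each of 2 readings. In the as-deposited reading the values are taken to run the same way on every array. In the channel reading the same channel is the numerator throughout, and the signs of arrays 3 and 4 are turned. The model first averages each orientation. The as-deposited estimate is the mean of these 2 averages, and the channel estimate is their difference divided by 2. Neither is the plain mean over arrays: without the orientation term, the channel estimate of CDC19 was -0.88. Of the 9 genes, 8 could be tested, and PYK2 had too few values.

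None of the 8 passed in either reading, and neither did any other gene, which makes the background 0% in both. In limma, 25 of 725 genes had an unadjusted p under 0.05 in the as-deposited reading (3.45%) and 19 in the channel reading (2.62%). CDC19 and TDH2 were among the 25, and none of the 8 was among the 19. CDC19 lay at 2.18 ± 0.80 in the as-deposited reading (log2, SE; limma adjusted p = 0.903) and at -1.32 ± 0.80 in the channel reading (limma adjusted p = 0.905). TDH2 lay at 2.06 ± 0.81 in the as-deposited reading (limma adjusted p = 0.903), with all 4 of its values above the median gene, and at 0.63 ± 0.81 in the channel reading.

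Both estimates leaned on the single spots described above. Without the higher CDC19 spot of array 4, CDC19 lay at 1.10 in the as-deposited reading and at -0.24 in the channel reading. Without array 1, TDH2 lay at 0.76 and -0.67. Leaving out array 3 leaves array 4 as the only array of its orientation. The model then fits array 4 exactly, so the wide spread of that array does not enter the error. No call is read from such a fit. CDC19 lay there at 3.70 in the as-deposited reading and -2.84 in the channel reading, and TDH2 at 1.99 in the as-deposited reading. With the higher CDC19 spot left out as well, an alternative chosen after seeing the data, CDC19 lay at 1.54 and -0.68.

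**Figure D4:**
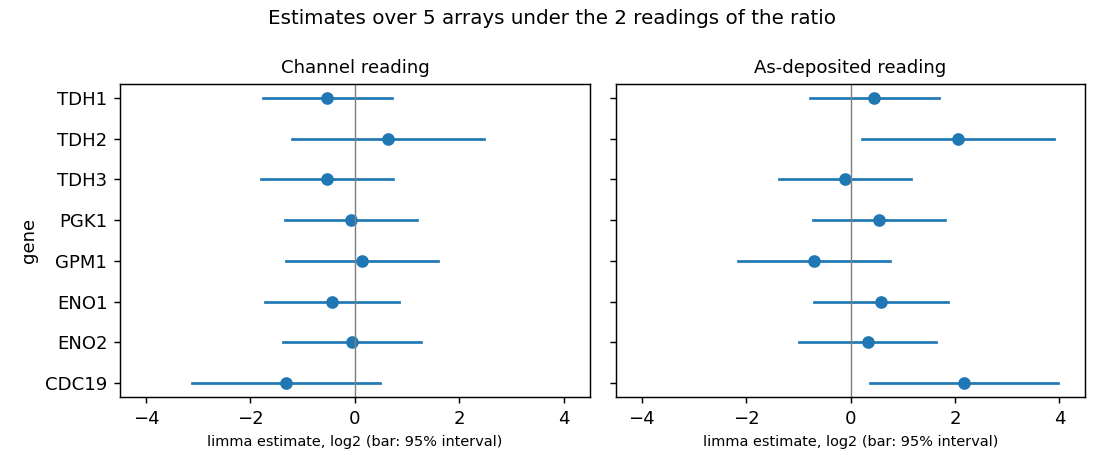
Limma estimates of the 8 tested lower glycolysis genes in log2 units, with 95% intervals that are not adjusted for the number of genes, in the channel reading and the as-deposited reading. Most intervals include 0; those of TDH2 and CDC19 in the as-deposited reading do not, and their adjusted p is 0.903.

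The other 6 genes lay closer to 0. TDH1 was at 0.46 ± 0.55 in the as-deposited reading and -0.53 ± 0.55 in the channel reading, and TDH3 at -0.11 ± 0.55 and -0.53 ± 0.55. PGK1 was at 0.55 ± 0.55 and -0.07 ± 0.55, GPM1 at -0.71 ± 0.64 and 0.14 ± 0.64. ENO1 was at 0.59 ± 0.56 and -0.44 ± 0.56, and ENO2 at 0.33 ± 0.58 and -0.05 ± 0.58. Several of these rested on 1 array. Without array 4, ENO1 lay at 0.058 in the as-deposited reading and TDH1 at -0.0032 in the channel reading. Without array 2, GPM1 and PGK1 lay at -0.069 and 0.19 in the as-deposited reading, and TDH3 at -0.12 in the channel reading. The median half-width of the 95% interval over the 8 genes was 1.30 log2 units, so differences of 2-fold were within the error of most of them.

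As a list, 6 of the 8 genes had a positive estimate in the as-deposited reading, with a median of 0.50, against 54.1% of all genes tested and a median of 0.07. Leaving out 1 array at a time moved that median between 0.13 (without array 4) and 0.94 (without array 3). In the channel reading the count was 2 of 8 and the median -0.26, against 52.6% and a median of 0.06. This median lay at -0.80 without array 3 and -0.085 with arrays of equal spread, and it changed sign, to 0.14, without array 4. Upper glycolysis genes had 2 of 4 positive in each reading, and the genes from pyruvate to ethanol 5 of 7 and 2 of 7. None of these passed in limma, where the lowest adjusted p of either list was 0.903.

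Arrays of one orientation share a direction whichever reading holds. Over arrays 1, 2 and 5, 3 of the 9 genes had a value on every array. CDC19 lay at 0.86 ± 0.52 (limma adjusted p = 0.831), ENO2 at 0.27 ± 0.35 and TDH1 at -0.07 ± 0.56, so 2 of 3 were positive, against 50.9% of all genes tested. None of the 281 genes tested there passed (0%), and 6 had an unadjusted limma p under 0.05 (2.14%), none of them among the 3. Over arrays 3 and 4, 7 of the 9 were tested and 6 were positive, against 48.8% of 1300 genes. CDC19 lay at 3.50 ± 1.36 (limma adjusted p = 0.958), or at 1.34 (limma adjusted p = 0.966) from its lower spot on array 4 alone. TDH2 lay at 1.43, ENO1 at 1.02 and TDH1 at 0.98, and GPM1 was negative at -0.85. None of the 1300 genes passed (0%), and 65 had an unadjusted limma p under 0.05 (5%), CDC19 among them when both of its spots were used. With 1 array of wide spread and 1 of narrow spread, limma assigned the same standard error, 1.36, to each of these genes.

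Only TDH1 and CDC19 had values on all 5 arrays, so likeness of other genes was measured against their mean profile, as the Euclidean distance over 5 arrays scaled to equal spread. On array 2 these genes lay far apart, at -1.41 and 1.97, so the mean profile there is near neither of them. Of 144 other genes with values on every array, the nearest were ASP3-4, one of several near-identical asparaginase genes, at a distance of 1.05, then RTC3, the glutathione peroxidase gene GPX1, the mitochondrial ribosomal protein gene MRPL33, and CIP1 at 1.68. The median distance was 3.28. ASP3-4 lay at 0.26, -0.05, 0.21, 3.67 and -0.03 on arrays 1 to 5, close to the median gene on 4 arrays and high on array 4. No other gene of sugar metabolism was among the nearest 5. With 5 points, and 1 of them decided by a single CDC19 spot, this order is a description only.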

How the data were processed

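Spotted 2-channel arrays compared cDNA of zzYra1 and zz immunoprecipitates in 1 group of 5 arrays. What the authors deposited are 2 tables of log10 ratios between channels, 1 column per array, all used here. The base was settled from the values: of 400 drawn per array, 27.25% to 95.5% read as log10 came out as whole-number fractions with denominators up to 3000 (relative tolerance set by the 9th decimal), and at most 1.5% as log2 or natural logarithms. The sources used here do not give scanner, background correction, dyes, numerator or why values are missing. Column medians, 0.800, -0.343, 0.0482, 0.478 and 0.478 log10 units on arrays 1 to 5, show that the deposited values were not centred.

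Values were multiplied by 3.32 to log2, averaged per gene, and set against each array's median gene, with no loess or quantile step, since many RNAs may shift one way in an immunoprecipitation; a shift common to most genes is thereby removed. Symbols came from the platform annotation, updated through gene identifiers to the R64 RefSeq gene table (5578 of 5583 and 5534 of 5539 genes matched); 985 of 7680 and 1662 of 12800 spots had no symbol and none had several. Repeated spot numbers (3 and 1) were averaged and 1 row without a number was left out. The annotation gives no genome build, so no coordinates are given.

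Limma 3.58.1 under R 4.3.3 fitted genes with at least 4 values, with an orientation term whose 2 coefficients are the readings. On simulated data with the missing values and spread of these arrays, only the channel coefficient was checked. The simulated effects were larger than the members' estimates over all arrays. Smaller effects and the as-deposited reading were therefore not covered. Genes named are the 9 members, fixed lists of neighbouring pathway genes, and the 5 genes nearest in profile. Members, lists and tests were chosen with earlier results of these data known. Alternatives were other filters, scaling, centring, spots set against those numbered within 10 (at least 5 measured), the median of spots, a model without orientation, and leaving out each array. Signal over background is unknown without intensities, and precision is limited by the number of arrays.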

Additional observations from a re-analysis of the deposited data

Results flagged for a closer look

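Among 20 sets of 4 or 5 array values, 3 had an isolated value, each on array 4; chance flags about 1 in 20 sets of equal spread, or 1 here. That rate is only a guide: the log2 ratios of all genes had a spread (SD) of 2.51 on array 4, against 0.91 to 1.14 elsewhere, and the sets are not separate, since each gene enters under both signs. ENO1 lay at 2.08 there, against -0.03 to 0.22 on arrays 2, 3 and 5, and with the signs of arrays 3 and 4 turned at -2.08, against 0.03 to 0.22. CDC19 with these signs turned lay at -6.53 on array 4, against -0.47 to 1.97 on the others. The ENO1 duplicates on array 4 differed by 0.21 log2 units and those of CDC19 by 8.62.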

How the results depend on the processing

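No paired analysis was possible because the arrays form 1 group. Across the alternatives that kept arrays 3 and 4, 0 genes and 0 of the members tested were called in either reading. At most 8 members were tested, as PYK2 had too few values. With values on all 5 arrays, or with spots set against their neighbours, 2 were tested. The highest counts below come from the fits without array 3. These tested 593 genes and 7 members in the channel reading, and 725 genes and 8 members in the as-deposited reading. Array 4 is then alone in its orientation, as array 3 is without array 4, so no call is read from such fits. The calls without array 3 were not kept when arrays were also scaled to equal spread. Leaving out each array in turn gave 0 to 68 genes called in the channel reading and 0 to 81 in the as-deposited reading, and 0 to 1 and 0 to 2 of the members; without array 4 there were 3 genes in the channel reading. With array 3 and the higher CDC19 spot both left out, an alternative added after seeing the data, the counts were 67 and 80 genes, and TDH2 was the 1 member called, in the as-deposited reading (1.99, limma adjusted p = 0.029). Over the arrays left out, channel estimates crossed 0 for PGK1 (-0.43 to 0.29), TDH2 (-0.67 to 1.92), GPM1 (-0.50 to 0.78), ENO1 (-0.97 to 0.092) and CDC19 (-2.84 to 0.20), and as-deposited estimates for TDH3 (-0.52 to 0.30) and TDH1 (-0.065 to 0.98). Single values that turned sign in the channel reading were PGK1 with scaled arrays (0.22), ENO2 without the orientation term (0.11), and, without array 3, PGK1 (0.066) and GPM1 (-0.49) with scaled arrays and GPM1 (-0.36) also without the CDC19 spot; TDH3 then lay at 0.16 in the as-deposited reading. With values required on all 5 arrays, which leaves 2 members, the as-deposited median was 1.32. The members' median on array 4 was 0.56 with scaled arrays. With spots set against their neighbours, which keeps 6 and 3 members, it was -0.53 on array 2 and -0.77 on array 5. Members' medians over the arrays left out ran from 0.13 to 0.94 (as-deposited) and -0.80 to 0.14 (channel). Taking GPM1 from its lower spot gave -1.04 and 0.47 in the as-deposited and channel readings. The causes were not tested.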
